A study of Mus musculus with 4 samples.

Results

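Peaks of N6-methyladenosine (m6A) RNA that lay in coding sequence or a 3′ untranslated region and were listed for sham cortex with no overlapping peak listed for injured cortex are described here, 5535 peaks in all. They were selected from a deposited table of 33977 peaks, of which 17943 belonged to a sham set and 16034 to a set from mice with repetitive mild traumatic brain injury (rmTBI). A sham-set peak of the class cds (coding) or utr3 (3′ untranslated) was taken when its interval shared no base on the same strand with any rmTBI-set peak of any class. Of 16137 sham-set peaks of both classes, 34.3% met this rule, 3003 of them cds and 2532 utr3. They are called sham-only peaks below. By the same rule 3971 rmTBI-set peaks were rmTBI-only, and 10602 sham-set peaks of both classes overlapped an rmTBI-set peak and are called shared. Because the presence of a peak call in sham and its absence in rmTBI chose these peaks, their levels in both conditions are a description and support no difference between the conditions.

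The series measured m6A by immunoprecipitation of total RNA from mouse cerebral cortex with an antibody against the mark, followed by sequencing. There were 4 libraries, 2 from mice after a sham procedure and 2 from mice after rmTBI, all labelled with the same antibody and numbered 0 and 1 within each group. Whether libraries 0 and 1 came from separate mice, or what else the number stands for, is not in the labels. Studies of this kind often sequence the RNA before and after immunoprecipitation, and whether the numbers mark these is not known and was not tested. If they did, a mean over both libraries would mix RNA level with m6A enrichment, and the spread between them would not be one between replicates. The authors' deposited log2 value for rmTBI against sham followed the change of the 1-to-0 ratio between conditions (Pearson correlation 0.99 across all peaks). The fits below treat both numbers of a condition as replicates. The p-values here rest on the spread among 4 libraries, which may also be technical. For the strain, sex and age of the mice, the injury protocol and the time after injury no statement was found in the labels, and no library labelled as lacking the antibody was analysed here. Counts over all peaks summed to 14437317 in sham library 0, 26356562 in sham library 1, 13753600 in rmTBI library 0 and 26888072 in rmTBI library 1. In both groups the library numbered 1 was thus the deeper one.

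m6A is deposited on messenger RNA during transcription by a methyltransferase complex whose catalytic subunit is Mettl3, can be removed by the demethylases Fto and Alkbh5, and is bound by YTH-domain reader proteins that influence the splicing, translation and decay of the RNA. The complex prefers a short consensus that contains the bases GGACT in DNA letters, and the mark is known to be dense in long internal exons, near stop codons and in 3′ untranslated regions. In brain, many transcripts of synaptic, cytoskeletal and transcriptional regulators carry it, and loss of Mettl3 or of readers has been tied to changes in learning and axon growth.

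The rows of the table are part of the peaks that were numbered when they were called, since the numbers reach 28022 in the sham set and 28375 in the rmTBI set. The numbers run along each chromosome strand, ascending in 98.5% of 15991 pairs of neighbouring rmTBI-set rows, and 56.7% of these pairs carried consecutive numbers. For 683 of the 5535 sham-only peaks (12.3%) the rmTBI-set rows on either side were numbered consecutively. For the other 4852, at least 1 rmTBI peak number is not among the rows used here between the flanking rows, the order is broken there, or a flanking row is lacking. An absent overlap is therefore an absence from these rows.

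Sequence was read for the few peaks that reach a RefSeq promoter window, which covers a gene's start and the bases just before it in GRCm38.p6, since no genome was used here. Of 3736 sham-only peaks spanning at most 400 bases, 130 shared at least 30 bases with such a window, and GGACT was found on the strand of the peak in 20 of these 130 pieces (15.4%), or 1.93 times per 1000 bases. It was found 2.10 times per 1000 bases in 93 pieces of shared peaks and 1.37 times in 79 pieces of rmTBI-only peaks. Over all 32851 promoter windows, read on the gene's strand, it occurred 1.03 times per 1000 bases, and 26.1% of these 300-base windows held it. Shown are 30 bases from 7 cds peaks, chosen for the highest sham levels (Pcdh10, Map1lc3b, Jun, Dusp1) and for the largest fall of the ratio of library 1 to library 0 between sham and rmTBI (Siah3, Ermp1, Rnf208). They are written 5′ to 3′ on the strand of the peak with GGACT in capitals.
Pcdh10 (protocadherin, neuronal adhesion), chr3:45378446-45378475, plus strand: aggaggcaggatGGACTgagaggagaagag
Map1lc3b (LC3B, autophagosome membrane), chr8:121590442-121590471, plus strand: tgactcggctgcGGACTgagacacacacaa
Jun (AP-1 transcription factor), chr4:95052185-95052214, minus strand: caggctggataaGGACTcagagttgcactg
Dusp1 (MAP kinase phosphatase), chr17:26508449-26508478, minus strand: gcgcgcagtgaaGGACTggcgggaggaaag
Siah3 (SIAH-family protein), chr14:75525864-75525893, plus strand: tgatgctgattgGGACTcccactcaggccg
Ermp1 (endoplasmic reticulum metallopeptidase), chr19:29648381-29648410, minus strand: ccgcggtggcccGGACTgtcgcaggctggg
Rnf208 (RING finger protein), chr2:25242927-25242956, plus strand: gtcccggcccagGGACTgctgacctctgct

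The pieces of Pcdh10 and Siah3 were read from the promoter windows of 2610316D01Rik and Gm35966, which those peaks reach, and the other 5 from the window of the gene itself. Pieces near starts do not stand for the 3′ untranslated peaks. A match of the letters is not evidence that the adenosine was methylated. At Pcdh10 the peak held 227 CPM (counts scaled to a common library total with edgeR's trimmed mean of M values) in sham library 0, 387 in sham library 1, 237 in rmTBI library 0 and 409 in rmTBI library 1. Both number 1 libraries were above both number 0 libraries, and the conditions interleaved. At Ermp1 the levels were 5.70 and 5.23 CPM in sham libraries 0 and 1 and 6.06 and 2.73 CPM in rmTBI libraries 0 and 1, so that rmTBI library 1 stood below the other 3. At Siah3 they were 0.214 and 0.585 CPM in sham against 0.606 and 0.360 CPM in rmTBI, from 3 to 16 counts per library.

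Sham-only peaks were narrower than shared peaks and held fewer counts. The median interval was 241 bases, against 391 for shared and 211 for rmTBI-only peaks, and 78.6% spanned under 1000 bases. The longest spanned 815026 bases and the shortest 61, and 8.71% spanned over 5000 bases, so that some intervals cross introns and their counts may include intronic reads. The median sham-only peak held 53 counts in sham library 0, 106 in sham library 1, 53 in rmTBI library 0 and 89 in rmTBI library 1. Shared peaks held medians of 156.5, 319, 146 and 327 counts in the same order. Within the gene, from 0 at the RefSeq start to 1 at the end, cds sham-only peaks had a median position of 0.61 and utr3 peaks 0.96, close to the 0.66 and 0.95 of shared peaks.

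The 5535 peaks fell in 4291 of the 10415 genes with any peak (41.2%). There were 3321 genes with 1 such peak, 767 with 2 and 203 with 3 or more. Of the 4291 genes, 2204 (51.4%) also held a shared peak, 1148 (26.8%) also held an rmTBI-only peak, and 1598 (37.2%) had no rmTBI-set peak of any class among the rows. Distance to the nearest rmTBI-set peak on the same strand was 1 to 200 bases for 611 sham-only peaks, over 200 and up to 1000 for 1088, over 1000 and up to 10000 for 1249 and over 10000 for 2586. The mt-Nd5 peak on the minus strand of the mitochondrial genome had none. Just inside the rule were the peaks of Bcl2l2, 17 bases from an rmTBI-set peak, and of Krt12 and Rprml, both 28 bases away. Just outside were shared peaks of Zfp30, Zfp790 and Chsy1, which overlapped an rmTBI-set peak by 2 bases. At Bcl2l2, inside this edge, the levels were 5.78 and 4.90 CPM in sham and 7.13 and 5.18 CPM in rmTBI. At Zfp790, outside it, they were 1.85 and 1.5 CPM in sham and 1.52 and 1.37 CPM in rmTBI. Within each number rmTBI was thus higher at Bcl2l2 and lower at Zfp790.

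Peaks with few counts made up much of the group. Among sham-set peaks of both classes with a mean of under 50 counts over the 4 libraries, 64.9% were sham-only. The share was 31.4% at 50 to under 200 counts, 21.6% at 200 to under 1000 and 23.3% at 1000 or more. In the rmTBI set, the share of rmTBI-only peaks in the same classes was 63.6%, 28.2%, 10.6% and 3.35%. At low counts both sets thus held like shares, while at 1000 or more counts there were 541 sham-only and 61 rmTBI-only peaks. Of the 541, 21 (3.88%) lay between consecutively numbered rmTBI-set rows, compared with 365 of the 2251 peaks under 50 counts (16.2%).

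**Figure D1:**
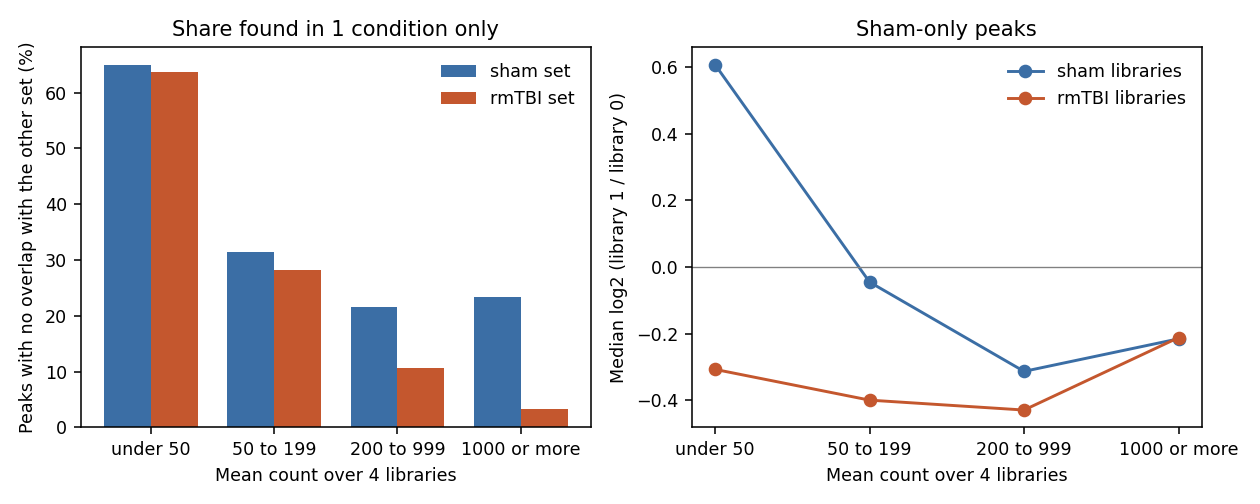
Left, percentage of cds and utr3 peaks of the sham set (blue) and of the rmTBI set (orange) that overlap no peak of the other set, by mean count over the 4 libraries. Right, median log2 ratio of library 1 to library 0 over the sham-only peaks of each class, in the sham libraries (blue) and the rmTBI libraries (orange); under 50 counts the medians are 0.61 and -0.31, and at 1000 or more they are -0.22 and -0.21.

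What most sham-only peaks, chiefly those with few counts, had in common was the ratio between the libraries numbered 1 and 0. On the log2 scale of CPM with a prior count of 2, the median of library 1 over library 0 was 0.14 in sham and -0.35 in rmTBI. In rmTBI-only peaks it was -0.52 in sham and 0.21 in rmTBI, and in shared peaks 0.11 and 0.10. The ratio was lower in rmTBI than in sham for 4371 sham-only peaks (79.0%), 337 rmTBI-only peaks (8.49%) and 5344 shared peaks (50.4%). The peak calls chose these groups, so the split is given as a description of what the rule took. For utr3 sham-only peaks the medians were 0.29 in sham and -0.28 in rmTBI, and for cds peaks 0.01 and -0.41.

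**Figure D2:**
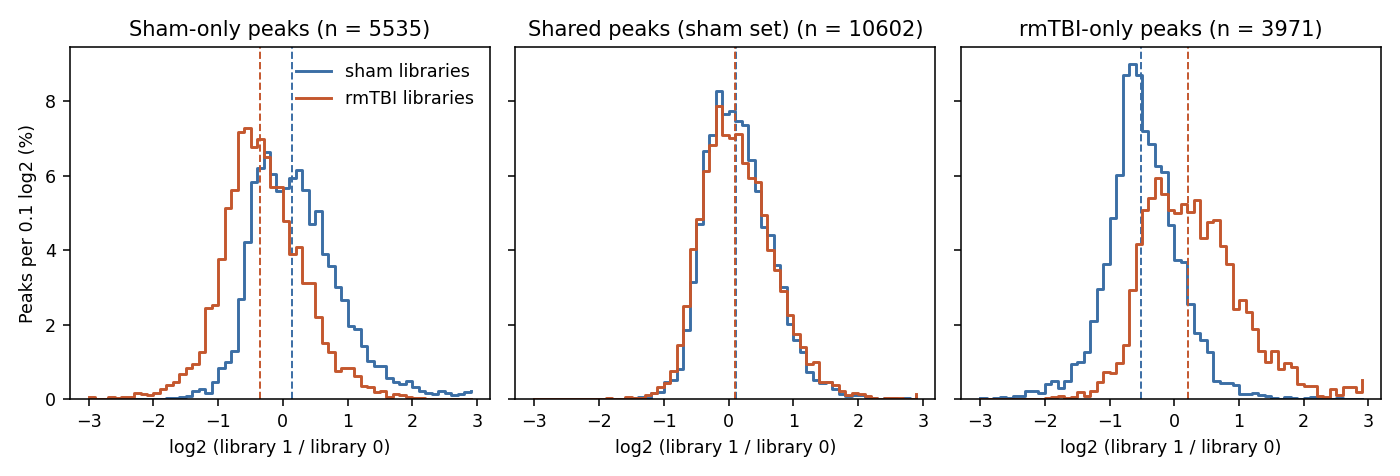
Distribution of the log2 ratio of library 1 to library 0 in sham (blue) and rmTBI (orange) libraries for sham-only, shared and rmTBI-only peaks, as percent of peaks per 0.1 log2 bin, with dashed lines at the medians. The 2 curves coincide for shared peaks and lie apart in opposite directions for the other groups; values beyond 3 are stacked in the end bins.

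The fall of this ratio was largest in thinly covered peaks. Its median difference over sham-only peaks, rmTBI minus sham, was -0.95 under 50 counts, -0.32 at 50 to under 200, -0.09 at 200 to under 1000 and -0.03 at 1000 or more. Shared peaks had -0.03 under 50 counts and -0.02 at 1000 or more. At 1000 or more counts the ratio was lower in rmTBI for 60.3% of sham-only and 57.6% of shared peaks, so there the groups were nearly alike. In the 683 sham-only peaks between consecutively numbered rmTBI-set rows the median difference was -0.73, against -0.26 in the other 4852. Where a gene held both a sham-only and a shared peak, the sham-only peak's ratio difference was below the median of the gene's shared peaks for 75.2% of 3000 peaks, with a median gap of -0.30. The shared peaks themselves, 4252 of them in 2203 of these genes, had a median ratio difference of -0.00.

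Medians of the fitted ratio, which uses both libraries of each condition, lay near 0 in each group of peaks. The fitted log2 ratio of rmTBI to sham had a median of 0.01 over the 5284 sham-only peaks with enough counts to be tested, -0.03 over rmTBI-only peaks, 0.02 over shared peaks and 0.02 over all peaks. The other 251 sham-only peaks had too few counts for the fit. Taken by number, the median was 0.16 between the libraries numbered 0 and -0.17 between those numbered 1, so the 2 numbers differed in sign. For rmTBI-only peaks the values were -0.34 and 0.27, and for shared peaks 0.02 and 0.02. A ratio called fitted below comes from a count model of group alone that pools both numbers. It is not the mean of the 2 ratios within number, which carry a prior count of 2, and need not lie between them. For lists of genes the medians within number 0 and within number 1, over tested and untested peaks, follow the fitted one.

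Over all peaks tested, edgeR's quasi-likelihood test with Benjamini-Hochberg adjustment called 0.0868% lower in rmTBI at an adjusted p under 0.05, and 0% higher. The sham-only peaks held 5 of the lower calls and none of the higher ones. The 5 are 3 cds and 2 utr3 peaks, in F5, Synpo2, Slitrk6 and, with 2 peaks, Tcf7l2. Scaling by library size alone called 0 of them, and so did a filter of at least 10 counts in every library, so neither kept any of the 5. That filter removed the F5 peak before the test. An unadjusted p under 0.05 in either direction was found for 176 of the 5284 sham-only peaks (3.33%), beside 2.84% of all peaks. DESeq2 called 0 higher and 36 lower (0.717%), beside 0.407% of all peaks. Fits that left out 1 library made more lower calls, among sham-only peaks and among all peaks. Without sham library 0 there were 35, or 0.633% beside 0.348% of all peaks, and without sham library 1 there were 21, or 0.412% beside 0.241%. Leaving out rmTBI library 0 gave 32, or 0.579% beside 0.265%, and leaving out rmTBI library 1 gave 26, or 0.494% beside 0.359%. With the number as a replicate block 263 were called lower (4.98%), beside 5.22% of all peaks, and 182 higher (3.44%), beside 5.42%. The peaks were called in these same libraries, so nothing is read from the shares. Both rmTBI libraries were below both sham libraries in 737 sham-only peaks (13.3%), beside 12.2% of all peaks, and above both in 576 (10.4%), again beside 12.2% of all peaks. The first share is near the background and the second a little under it.

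Shared peaks in the genes that hold a sham-only peak gave a median log2 ratio of 0.03. Of these 4252 peaks, tested or not, 8 (0.188%) were called lower by edgeR, beside 0.0854% of all 33977 peaks. None was called with library-size scaling or the stricter filter. DESeq2 called 18 lower (0.427%), beside 0.407% of all peaks. With the replicate block 284 were called lower (6.69%) and 291 higher (6.86%), beside 5.22% and 5.42% of all peaks. Without the block none was called higher, by edgeR or by DESeq2, and 126 (2.97%) had an unadjusted p under 0.05 in either direction, beside 2.84% of all peaks. Both rmTBI libraries were below both sham libraries in 531 of these shared peaks (12.5%) and above both in 567 (13.3%). Both shares are near the 12.2% of all peaks, and the rule did ask of these peaks that both conditions call them.

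The sham-only peaks with the highest levels belonged to abundant neuronal and housekeeping transcripts and included peaks that were alike, higher or lower in rmTBI. The order is one of counts per peak, not per length. In Hsp90ab1, a constitutive cytosolic heat-shock chaperone (cds, chr17:45570283-45570798), the peak held 2862 and 3378 CPM in sham libraries 0 and 1 and 3250 and 3344 CPM in rmTBI libraries 0 and 1. The nearest rmTBI-set row was 24631 bases away in Tmem151b. In App, the amyloid precursor protein (cds, chr16:85024952-85079935), the levels were 2209 and 1906 CPM in sham and 2046 and 1746 CPM in rmTBI. The conditions overlapped in both genes, and the fitted log2 ratios were 0.08 (SE 0.17) and -0.12 (SE 0.18). Calm3, a calmodulin gene (cds), read 1669 and 1150 CPM in sham and 1666 and 1156 CPM in rmTBI, nearly the same values within each number.

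Other peaks of high level were in Asic2, an acid-sensing ion channel, whose interval spans 815026 bases, in Eif3a, a translation initiation subunit, in Ywhae, a 14-3-3 adaptor, and in Syt1, the calcium sensor of synaptic vesicle release. In Asic2 the levels were 2327 and 1291 CPM in sham and 3158 and 1721 CPM in rmTBI, higher in rmTBI within each number and overlapping between conditions, with a log2 ratio of 0.43 (SE 0.35). In Syt1 the levels were 1297 and 1010 CPM in sham and 1398 and 1088 CPM in rmTBI, overlapping between conditions. Chgb, a granin of dense-core vesicles (cds, chr2:132786525-132793947), was higher in both rmTBI libraries, at 1926 and 2241 CPM against 1385 and 1700 CPM in sham, with a log2 ratio of 0.43 (SE 0.19, adjusted p = 1, edgeR). Stmn1, a microtubule-destabilising protein, and Cplx2, which clamps vesicle fusion, both utr3, were also higher in both rmTBI libraries. Cplx2 held 1022 and 1026 CPM in sham and 1175 and 1168 CPM in rmTBI, a small gap with little spread, and it was not called (log2 ratio 0.19, SE 0.18, adjusted p = 1, edgeR). None of these 12 genes of the highest level lay between consecutively numbered rmTBI-set rows.

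Mitochondrial messages held 7 sham-only peaks, in mt-Nd2, mt-Co1, mt-Nd4 and mt-Nd5, which encode subunits of respiratory complexes I and IV. Their median log2 ratio of rmTBI to sham was -0.19, and that of 13 other mitochondrial peaks was -0.22. In the mt-Nd5 peak at positions 12907 to 13565 the levels were 2067 and 1846 CPM in sham and 1813 and 1628 CPM in rmTBI. It was the 1 peak of the 7 with both rmTBI libraries below both sham libraries.

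The lowest ratios of rmTBI to sham, among 1 peak per gene with at least 5 CPM in sham on average, included several genes known from thalamus and choroid plexus. F5, coagulation factor V (cds, chr1:164192828-164193008), held 8.48 and 6.55 CPM in sham and 0.455 and 0.612 CPM in rmTBI, a log2 ratio of -3.75 (SE 0.37, adjusted p = 0.0437, edgeR). Slitrk6, a neuronal transmembrane protein that shapes neurite growth (utr3, chr14:110749413-110750161), held 6.63 and 12.5 CPM in sham and 0.758 and 0.791 CPM in rmTBI, a log2 ratio of -3.63 (SE 0.42, adjusted p = 0.0437, edgeR). Synpo2, an actin-binding protein (cds, chr3:123113279-123113759), held 10.6 and 10.4 CPM in sham and 1.14 and 0.791 CPM in rmTBI, a log2 ratio of -3.48 (SE 0.33, adjusted p = 0.0437, edgeR). In all 3 peaks both rmTBI libraries were far below both sham libraries, but none of the 3 was called with library-size scaling. With at least 10 counts in every library Slitrk6 and Synpo2 were not called. F5, with 6 counts in rmTBI library 0, was removed by that filter and not tested. Synpo2 also had an rmTBI-set peak 268 bases away.

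Tcf7l2, a Wnt-pathway transcription factor that is strongly expressed in thalamus, held 4 sham-only peaks. Its utr3 peak (chr19:55932096-55932307) held 12.05 and 10.1 CPM in sham and 1.06 and 1.33 CPM in rmTBI, a log2 ratio of -3.17 (SE 0.31, adjusted p = 0.0437, edgeR). The cds peak next to it was called too, at -2.59 (SE 0.30, adjusted p = 0.0437, edgeR), with -2.82 within number 0 and -2.31 within number 1. Neither was called with library-size scaling or the stricter filter. The other 2 cds peaks had log2 ratios of -3.14 and -2.31 and were not called. All 4 peaks of the gene were lower in both rmTBI libraries.

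Kl, the Klotho co-receptor for fibroblast growth factor signalling, and Sostdc1, an inhibitor of BMP and Wnt signalling, both known from choroid plexus, had log2 ratios of -3.15 and -2.67 in their utr3 peaks. In Sostdc1 the levels were 8.13 and 5.78 CPM in sham and 1.14 and 1.04 CPM in rmTBI. Slc17a6, the vesicular glutamate transporter of subcortical neurons, held 15.9 and 12.5 CPM in sham and 4.09 and 2.48 CPM in rmTBI. The remaining genes of this rank were Plekhg1, Patj, Mrvi1, Plekhd1 and Vav3, with log2 ratios from -2.70 to -2.0. Both rmTBI libraries were below both sham libraries in each of the 12 genes, which were ranked by this very ratio. Of these 12 leading peaks only those of F5, Slitrk6 and Synpo2 had an adjusted p under 0.05 by edgeR. The rule and the ranking chose the peaks, so neither result is read as a difference between conditions.

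At the other end, the highest ratios were smaller in size, and 4 genes of that rank are given. Bmp3, a growth factor of the BMP family (utr3, chr5:98882658-98882899), held 16.7 and 27.0 CPM in sham and 37.7 and 50.4 CPM in rmTBI, a log2 ratio of 1.01 (SE 0.32, adjusted p = 1, edgeR). Both rmTBI libraries were above both sham libraries there, although the peak was listed for sham. In Btbd10, Cbfa2t3 and Trpc4 the conditions overlapped, with log2 ratios of 0.87, 0.81 and 0.78.

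**Figure D3:**
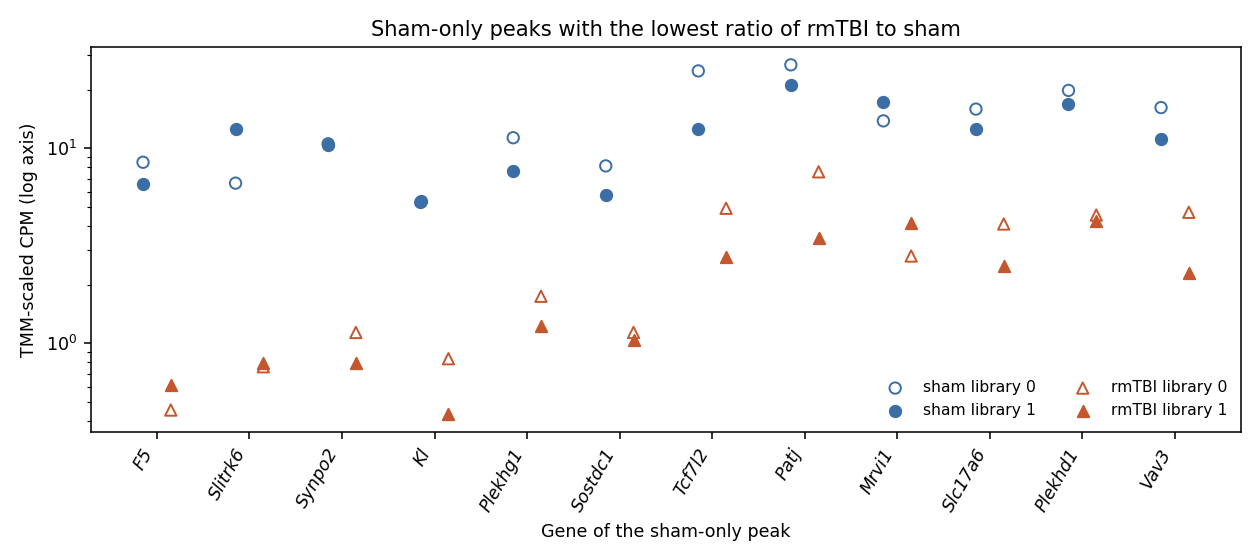
TMM-scaled CPM (log axis) in each of the 4 libraries for the sham-only peaks of the 12 genes with the lowest fitted ratio of rmTBI to sham; circles are sham, triangles rmTBI, open symbols library 0 and filled symbols library 1. Every triangle lies below both circles of its gene, in peaks that were ranked by this ratio.

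Lists of cell-type markers show where these low ratios sat; the lists were drawn up with earlier results of these data known. Markers of thalamic neurons held 18 sham-only peaks in 9 of 19 genes with a peak, with a median log2 ratio of -2.74 (-2.48 within number 0 and -2.59 within number 1) against 0.01 over all sham-only peaks tested. Both rmTBI libraries were below both sham libraries in all 18, beside 12.2% of all peaks. Of the 18, 4 were called (22.2%), beside 0.0868% of all peaks tested, and the rule chose these peaks, so nothing is read from the shares. Summed over the 18 peaks, the level was 187 and 200 CPM in sham and 43.1 and 50.7 CPM in rmTBI. The 22 shared peaks of the same list were low to a like extent, with a median of -2.35 and sums of 1214 and 1320 CPM in sham and 303 and 290 CPM in rmTBI. Rora, a nuclear receptor of thalamic and other neurons, is an example among the sham-only peaks. Its utr3 peak held 44.6 and 75.5 CPM in sham and 11.8 and 26.9 CPM in rmTBI.

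Markers of striatal neurons held 16 sham-only peaks in 9 of 13 genes, with a median of -1.01 (-0.96 and -1.14 within numbers 0 and 1). Both rmTBI libraries were below both sham libraries in 13 of the 16, beside 12.2% of all peaks, and nothing is read from this share. Pde10a, the striatal phosphodiesterase, had 5 of them, and in the utr3 peak at chr17:8983084-8983265 the levels were 51.6 and 36.1 CPM in sham and 21.9 and 13.5 CPM in rmTBI. Rgs9, which quickens the shut-off of G-protein signals, Adora2a, an adenosine receptor, and Penk, proenkephalin, were lower in both rmTBI libraries too. In the 2 Ebf1 peaks (log2 ratios of 0.14 and -0.40) and the Foxp1 peak at chr6:98929079-98929260 (-0.39) the conditions overlapped. The 16 peaks summed to 301 and 259 CPM in sham and 172 and 145 CPM in rmTBI, and the 10 shared peaks of the list had a median of -0.78. Choroid plexus markers held 5 sham-only peaks in 3 of 7 genes, all 5 lower, with a median of -2.44 (-2.01 and -2.37) beside -1.87 in 5 shared peaks. Their sums were 18.8 and 16.7 CPM in sham and 3.18 and 2.73 CPM in rmTBI, and no peak of Ttr, Folr1, Kcnj13, Otx2, Aqp1 or Tmem212 was among the rows.

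Myelin genes held 6 sham-only peaks, with a median of -0.62 (-0.60 and -0.71) beside -0.69 in 15 shared peaks. Mal, a proteolipid of compact myelin (utr3), held 79.2 and 83.7 CPM in sham and 51.6 and 48.1 CPM in rmTBI, and the 6 peaks summed to 362 and 337 CPM in sham and 288 and 243 CPM in rmTBI. Cortical excitatory neuron markers, which define the labelled tissue, held 12 sham-only peaks in 7 of 18 genes with a median of 0.11 (0.30 and -0.06), beside 0.22 in 29 shared peaks. Their 12 peaks summed to 245 and 181 CPM in sham and 280 and 203 CPM in rmTBI. The part that differing tissue content of the samples had in the low ratios was not tested. In bulk tissue, fewer cells of a type and less RNA per cell cannot be told apart.

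**Figure D4:**
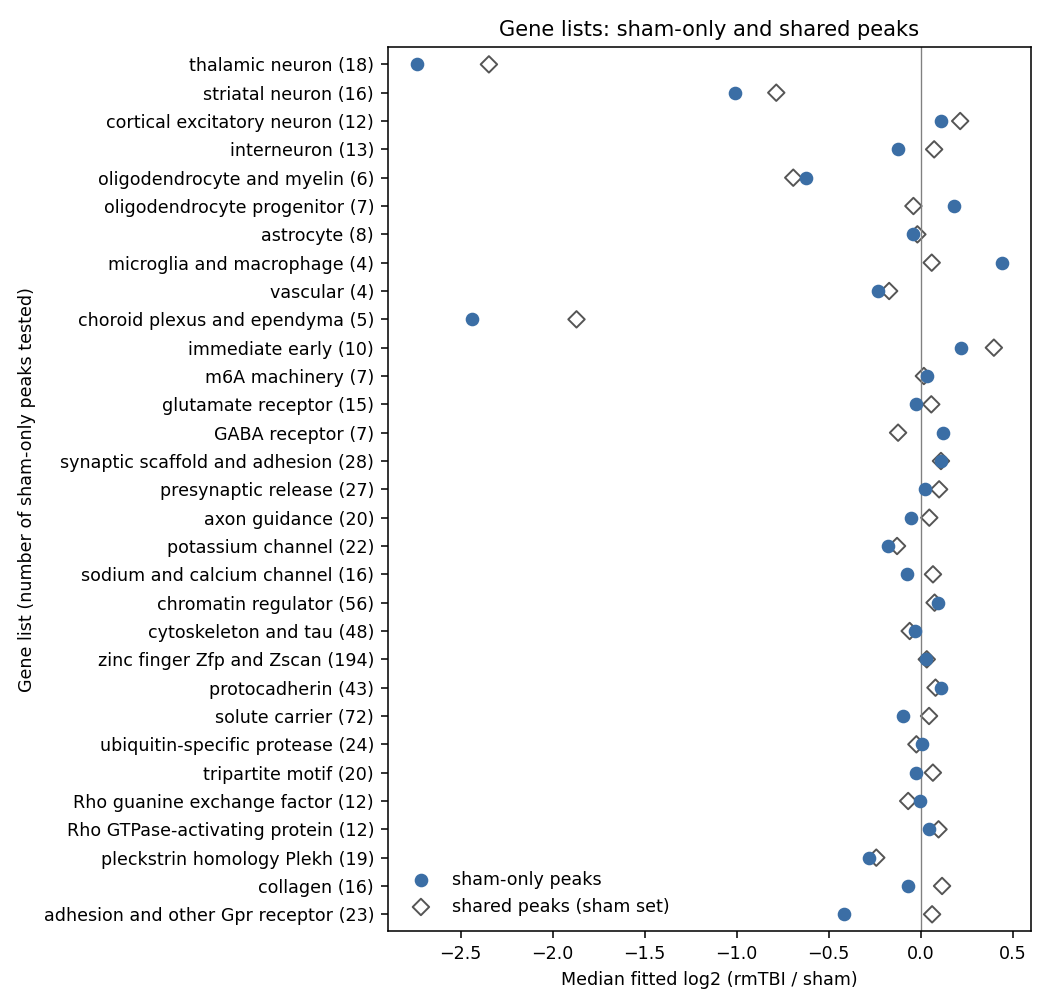
Median fitted log2 ratio of rmTBI to sham for each gene list, over its sham-only peaks (blue circles; number tested in brackets) and over its shared sham-set peaks (open diamonds). Circles and diamonds both lie far below 0 for thalamic (-2.74 and -2.35), choroid plexus (-2.44 and -1.87) and striatal markers (-1.01 and -0.78). They also lie apart for Gpr receptors (-0.42 and 0.06) and for microglia (0.44 and 0.06, 4 sham-only peaks). For GABA receptors the values are 0.12 and -0.12, from 7 sham-only peaks.

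Lists of other cell types moved less. Microglia and macrophage genes held 4 sham-only peaks with a median of 0.44 (0.53 and 0.28), 3 of them above both sham libraries, beside 0.06 in 7 shared peaks. Cd68, a lysosomal protein of phagocytes, held 2.64 and 2.78 CPM in sham and 5.16 and 3.99 CPM in rmTBI, and was not called. Astrocyte genes held 8 peaks with a median of -0.04 (0.03 and 0.01), interneuron genes 13 with -0.12 (-0.11 and -0.05), and oligodendrocyte progenitor genes 7 with 0.18 (0.32 and 0.12). Vascular genes held 4 with -0.23 and differed in sign between the numbers (0.19 and -0.67). Meningeal fibroblast and blood genes held none.

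Cytoskeletal genes and tau were the list most often represented by genes, with a sham-only peak in 22 of 24 (91.7%), beside 41.2% of all genes with a peak. By peaks they did not stand out. They held 48 sham-only and 92 shared peaks, a proportion like that of the 5535 sham-only and 10602 shared peaks in all. Their rmTBI-only peaks numbered 13. The median log2 ratio of the sham-only peaks was -0.03 (0.03 and -0.08). Map2, the dendritic microtubule-associated protein, had 5 sham-only peaks with log2 ratios from 0.28 to 0.33, above 0 within both numbers, and in its utr3 peak the levels were 351 and 302 CPM in sham and 429 and 379 CPM in rmTBI. Nefl, the neurofilament light chain (utr3, chr14:68086619-68087510), was lower in both rmTBI libraries, at 639 and 771 CPM in sham and 563 and 576 CPM in rmTBI, with a log2 ratio of -0.31 (SE 0.20). Mapt, which encodes tau, held 1 long cds peak with 30.4 and 16.7 CPM in sham and 31.6 and 16.5 CPM in rmTBI, close within each number. No peak of this list was called.

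Chromatin regulators held 59 sham-only peaks in 38 of 55 genes (69.1%), with a median of 0.10 (0.25 and -0.05). They also held 183 shared peaks, so that the sham-only proportion by peaks was below that of all, with 5535 sham-only and 10602 shared. The 1-to-0 ratio was lower in rmTBI for 47 of the 59 (79.7%), near the 79.0% of all sham-only peaks. Chd5, a neuronal chromatin remodeller, held 224 CPM in both sham libraries and 296 and 277 CPM in rmTBI. Zinc finger genes of the Zfp and Zscan families held 205 peaks in 150 of 328 genes, with a median of 0.03 (0.32 and -0.19) and a lower ratio for 172. Protocadherins held 45 peaks in 35 of 64 genes, with a median of 0.11 (0.24 and 0.03). Solute carriers held 78 in 64 of 179 genes, with a median of -0.10 (0.15 and -0.35). Genes of the Gpr receptor family, collagens and the Plekh family, whose proteins carry pleckstrin homology domains, had medians of -0.42 (0.14 and -1.05), -0.07 (0.23 and -0.77) and -0.28 (-0.01 and -0.63). Both rmTBI libraries were below both sham libraries in 10 of 26, 7 of 20 and 8 of 22 of their peaks, beside 12.2% of all peaks. The rule chose these peaks, so nothing is read from the shares.

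Synaptic and channel lists had medians nearer to that of all peaks. Scaffold and adhesion genes held 28 sham-only peaks in 18 of 32 genes, with a median of 0.11 (0.28 and 0.11), 9 above and 1 below both sham libraries. Lrrtm3, a postsynaptic adhesion protein, held 694 and 370 CPM in sham and 838 and 452 CPM in rmTBI over a long cds interval, overlapping between conditions. Presynaptic release genes held 27 in 17 of 32 genes with a median of 0.03 (0.11 and -0.05), glutamate receptors 15 in 12 of 24 genes with -0.03 (0.09 and 0.03), and GABA receptors 7 in 5 of 11 genes with 0.12 (0.01 and -0.29). Potassium channels held 23 in 19 of 37 genes with -0.18 (-0.08 and -0.14), beside -0.13 in 90 shared peaks. Of the 23, 8 (34.8%) were below and 3 above both sham libraries, beside 12.2% of all peaks in each direction. The rule chose the sham-only peaks, so nothing is read from these shares. Sodium and calcium channels held 16 in 14 of 24 genes with -0.08 (-0.00 and -0.15). Scn1a, a sodium channel subunit of fast-spiking interneurons, was lower in both rmTBI libraries, at 98.3 and 99.2 CPM in sham and 72.9 and 67.7 CPM in rmTBI.

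Genes that make, remove or bind m6A held 7 sham-only peaks in 6 of 15 genes, with a median of 0.04 (0.09 and -0.02). Zc3h13, a subunit that anchors the writer complex in the nucleus, held 186 and 229 CPM in sham and 198 and 247 CPM in rmTBI in its long cds peak. Hnrnpc, which binds RNA opened by the mark, held 329 and 327 CPM in sham and 349 and 323 CPM in rmTBI. Fto, a demethylase, had a utr3 peak of 1.28 and 1.83 CPM in sham and 1.90 and 1.87 CPM in rmTBI, and Rbm15, an adaptor of the writer, a cds peak of 1.43 and 2.05 CPM in sham and 1.29 and 2.01 CPM in rmTBI. None of the 7 was lower in both rmTBI libraries.

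Immediate early genes, which neurons induce upon activity, held 10 peaks in 9 of 21 genes with a median of 0.22 (0.29 and 0.08), beside 0.40 in 22 shared peaks. In Jun, whose sequence is shown above, the levels were 16.3 and 25.9 CPM in sham and 13.6 and 25.6 CPM in rmTBI. Egr3 held 12.8 and 15.3 CPM in sham and 16.2 and 18.7 CPM in rmTBI in its cds peak, higher in both rmTBI libraries. Arc, a postsynaptic protein of plasticity, held 3.42 and 4.21 CPM in sham and 5.91 and 5.40 CPM in rmTBI.

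Genes with several sham-only peaks show how peaks of 1 transcript behaved. Zfhx3, a large zinc finger homeobox factor, held 7, and both rmTBI libraries were below both sham libraries in 6 of them. In its cds peak at chr8:108956053-108956384 the levels were 9.48 and 18.1 CPM in sham and 3.18 and 6.26 CPM in rmTBI, a log2 ratio of -1.52 (SE 0.42, adjusted p = 0.873, edgeR). The last 2 of its peaks in the 3′ untranslated region had log2 ratios of -2.47 and -1.49 at no more than 1.28 CPM in any library. Within Zfhx3 the peaks thus had ratios below 0 within both numbers.

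In Zbtb20 and D10Wsu102e most of the sham-only peaks differed in sign between the numbers. Zbtb20, a transcriptional repressor, held 8 utr3 peaks with log2 ratios from -0.24 to 0.19. In the largest of them (chr16:43641702-43641883) the levels were 17.3 and 13.0 CPM in sham and 20.6 and 14.0 CPM in rmTBI. Zfp462, a zinc finger protein tied to heterochromatin, held 7 cds peaks in a row between chr4:55009972 and chr4:55013780, and their ratios within number 1 were all below 0, from -0.66 to -0.02. Fat4, an atypical cadherin of planar cell polarity, held 9 cds peaks, 1 of which was on the opposite strand over the same bases as another with the same sham counts, and whether the counting used strand is not known. D10Wsu102e held 7 and 2900026A02Rik 5.

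**Figure D5:**
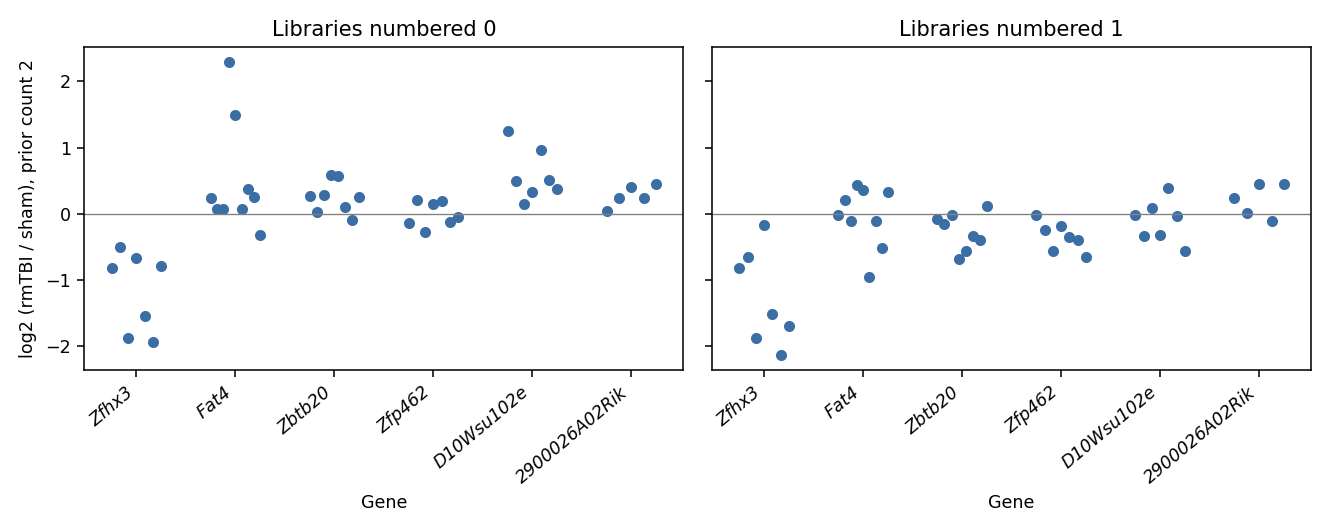
Log2 ratio of rmTBI to sham between the libraries numbered 0 (left) and between those numbered 1 (right) for every sham-only peak of the 6 genes with the most such peaks, each point 1 peak. Zfhx3 lies below 0 in both panels, while the peaks of Zbtb20 and D10Wsu102e are mostly above 0 on the left and below 0 on the right.

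The authors' deposited log2 value followed the change of the 1-to-0 ratio between conditions, with a Pearson correlation of 0.99 across all peaks, which are not independent replicates. Its median was -0.29 over sham-only peaks, 0.04 over shared and 0.67 over rmTBI-only peaks. The authors' deposited list of lower peaks took in 0.43% of all peaks, 146 in number, and 81 of them were sham-only (1.46% of the sham-only peaks). The deposited list of higher peaks took in 0.815%, 277 in number, and 3 were sham-only. The deposited value compares the same libraries in which the peaks were called, so nothing is read from the overlap. In the authors' deposited table no sham-only peak had an adjusted p under 0.05, and 3 of all peaks did.

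The 81 peaks were thinly covered, with a median sham level of 0.998 CPM. Their median ratio of library 1 to library 0 was 1.36 in sham and -1.0 in rmTBI, with rmTBI above sham by 1.60 between the libraries numbered 0 and at -0.72 between those numbered 1. Zfpm1, a cofactor of GATA transcription factors (cds, chr8:122335900-122336051), held 0.499 and 1.24 CPM in sham and 1.67 and 0.180 CPM in rmTBI. The highest value was thus rmTBI library 0 and the lowest rmTBI library 1, and the authors' deposited table gives it a log2 value of -4.49 and a p-value of 0.00476. Npsr1, the neuropeptide S receptor (utr3), held 0.285 and 1.13 CPM in sham and 1.06 and 0.144 CPM in rmTBI, with a log2 value of -4.83 in the authors' deposited table. Rad51d, a DNA recombination protein (utr3), held more counts, with 2.50 and 3.99 CPM in sham and 5.31 and 2.34 CPM in rmTBI. In each of these 3 the sham and rmTBI libraries crossed between the numbers. The 3 sham-only peaks in the deposited list of higher peaks were the utr3 peaks of Sgpp2, Triap1 and Fat3; in Sgpp2, a sphingosine phosphatase, the levels were 6.77 and 6.69 CPM in sham and 2.12 and 4.60 CPM in rmTBI, lower in both rmTBI libraries while the 1-to-0 ratio was higher.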

How the data were processed

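The authors deposited whole-number read counts per peak and library, not normalized, with a log2 value, p-value and adjusted p-value per peak. Per the file headers, peaks were called per condition. Per the submitters' processing notes, STAR, DESeq2 and GRCm39 were used, without versions or roles; no caller of peaks and no counting tool or strand setting is given in the sources used here. Peak intervals overlapped the RefSeq GRCm38.p6 span of their gene for 5367 of 5488 sham-only peaks with one, so that build is printed.

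Counts were scaled and tested with edgeR 4.0.16 (R 4.3.3; trimmed mean of M values, filterByExpr, quasi-likelihood test, Benjamini-Hochberg over 33415 peaks, 2 residual degrees of freedom). The script was tested on simulated data. CPM values are not per length, so an order of levels is one of counts per peak. Overlap was counted from 1 base on the same strand; 64 sham-only peaks overlapped another, leaving 5503 clusters. Genes were matched to RefSeq by symbol (4138) or synonym (121), with 32 unmatched. Named genes were, with 1 peak each, the 12 highest in sham, the 12 lowest and 6 highest ratios at a sham mean of at least 5 CPM, the 6 genes with the most peaks and up to 3 of each list, with peaks called or deposited as changed. The members, lists and rules were chosen with earlier results of these data known. Alternatives were DESeq2 1.42.0, library-size scaling, other filters, overlap rules, a replicate block and each library left out. Some genes that the rule names are not reported here.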

Additional observations from a re-analysis of the deposited data

How the results depend on the processing

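Among sham-only peaks, 5 were called lower; the count was 263 with the number as a replicate block, 36 by DESeq2, 0 with library-size scaling, 0 with at least 10 counts in every library and 21 to 35 with 1 library left out, where the lone library is assumed to vary like the others. Higher calls were 0, and 182 with the replicate block. Over all peaks the lower calls were 29, with 1743 under the block, 133 by DESeq2, 2 with library-size scaling, 0 with the stricter filter and 80 to 119 with 1 library left out. Of the shared peaks in the same genes 8 were called lower, 284 with the block, 18 by DESeq2, 0 with library-size scaling, 0 with the stricter filter and 13 to 18 with 1 library left out; higher calls were 0, and 291 with the block. Their median log2 ratio of 0.035 was 0.023 with library-size scaling, 0.0286 with the stricter filter and -0.0255 to 0.0734 with 1 library left out. The cause of these shifts was not tested. The labels share only a number between the groups; the 1-to-0 differences of sham and rmTBI correlated at 0.45 over all peaks, and with 2 pairs this does not show a pairing. The median log2 ratio of the sham-only peaks stayed within -0.21 and 0.16, and their number within 4352 and 6506 under the other overlap and length rules. The size of difference that this depth can show was not computed.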
